A study of Mus musculus with 22 samples.

Results

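Glucocorticoid-induced genes are a set of 10 genes named by symbol, Fkbp5, Tsc22d3, Sgk1, Zbtb16, Cdkn1a, Klf9, Klf15, Errfi1, Cebpd and Arrdc2, whose transcription rises in many tissues when the glucocorticoid receptor is active. Their probes were found by matching the RefSeq accession of each array probe to these symbols. A probe was found for 9 of the 10 genes, and these 9 were tested among 15501 genes in all. No probe of Zbtb16, which encodes a zinc finger transcription factor, was matched by accession, and Zbtb16 was not analysed here. The 9 genes had 14 probes, of which 12 lay well above background in the heart channel on at least 5 arrays, and each gene was represented by its brightest such probe.

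RNA came from 22 hearts, all of female C57BL/6 mice, and was hybridised to Agilent whole-genome arrays, each mouse on an array of its own. The mice were 5 to 7 weeks old when bought and were kept for 1 to 3 weeks before they received, once and into the trachea, 40 µl of liquid. In the nano-TiO2 groups the liquid held 162 µg of titanium dioxide nanoparticles, and hearts were taken after 1 day (5 mice) or 28 days (6 mice). In the control groups it was the vehicle alone, saline with cell-free lavage fluid from untreated mice, and hearts were again taken after 1 day (5 mice) or 28 days (6 mice). All 4 groups shared Hypnorm and Dormicum anaesthesia at the instillation and at sacrifice, and the time of day of sacrifice is not given in the sources used here. Each array compared Cy5-labelled heart RNA with a Cy3-labelled reference RNA pooled from 11 mouse cell lines, without dye swap, so every level below is a log2 ratio of heart over reference for 1 probe and levels of different genes are not compared. The mice carried no transgene per the labels, each array is a separate animal, and each heart was cut into pieces before freezing.

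Glucocorticoids such as corticosterone, the main glucocorticoid of mice, enter cells and bind the glucocorticoid receptor, encoded by Nr3c1, which then moves to the nucleus and binds DNA at glucocorticoid response elements, a pair of inverted half-sites. Several of the earliest target genes form feedback loops: Fkbp5 encodes a co-chaperone that lowers the hormone affinity of the receptor, and Tsc22d3 encodes GILZ, a leucine zipper protein that restrains inflammatory transcription. Corticosterone follows a daily rhythm and rises with handling, injury, anaesthesia and inflammation, and the heart expresses the receptor in both its muscle and its non-muscle cells.

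The upstream sequences of 4 of the genes are shown because they carry, or lack, the letters of the response element. RefSeq windows covering the 250 bases before each annotated start (build GRCm38.p6) were present for 8 of the 10 genes, 17 windows in all. The full palindrome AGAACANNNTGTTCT was in 3 of 32851 windows of this length (0.00913%), and 1 of these 3 was a window of Sgk1. It lay at chr10:21993701-21993715, 189 bases before the start that its window belongs to and 965 bases before the most downstream of the 6 annotated Sgk1 starts. The half-site AGAACA, on either strand, was in 16.1% of all windows and, among these genes, in windows of Sgk1 and Tsc22d3. In the lines below, capitals mark the palindrome, half-sites on either strand (TGTTCT on the opposite one), an E-box (CACGTG, in 6.02% of all windows), a cAMP response element (TGACGTCA, in 1.55%) and a TATA box (TATAAA, in 12.4%), each searched on both strands. The palindrome contains 2 half-sites, and in the Sgk1 window the E-box overlaps a further half-site. Each line reads 5′ to 3′ on the strand of the gene, and the last base is the one before the start: Sgk1 at chr10:21993640-21993889, plus strand; Tsc22d3 at chrX:140600523-140600772, minus strand; Errfi1 at chr4:150854820-150855069, plus strand; Fkbp5 at chr17:28486150-28486399, minus strand.
Sgk1: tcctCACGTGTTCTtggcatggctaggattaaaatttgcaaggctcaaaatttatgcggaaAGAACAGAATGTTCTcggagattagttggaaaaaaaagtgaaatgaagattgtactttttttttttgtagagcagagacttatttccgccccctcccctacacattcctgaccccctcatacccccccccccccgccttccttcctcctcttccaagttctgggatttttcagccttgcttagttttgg
Tsc22d3: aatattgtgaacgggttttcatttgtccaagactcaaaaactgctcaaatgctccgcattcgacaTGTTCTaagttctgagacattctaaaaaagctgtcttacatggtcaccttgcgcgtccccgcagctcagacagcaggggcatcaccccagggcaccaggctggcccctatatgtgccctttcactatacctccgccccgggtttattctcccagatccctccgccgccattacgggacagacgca
Errfi1: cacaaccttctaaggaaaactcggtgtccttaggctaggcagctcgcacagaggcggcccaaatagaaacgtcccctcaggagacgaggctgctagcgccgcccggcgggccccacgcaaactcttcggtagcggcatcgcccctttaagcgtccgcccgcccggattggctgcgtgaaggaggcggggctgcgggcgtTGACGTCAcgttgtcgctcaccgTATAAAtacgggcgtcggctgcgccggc
Fkbp5: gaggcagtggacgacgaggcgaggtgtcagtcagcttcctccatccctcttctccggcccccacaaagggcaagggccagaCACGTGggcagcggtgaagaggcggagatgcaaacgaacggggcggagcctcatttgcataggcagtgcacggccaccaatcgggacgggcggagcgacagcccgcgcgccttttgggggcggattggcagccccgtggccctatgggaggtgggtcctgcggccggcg
The Fkbp5 window held an E-box 169 bases before the start and no half-site. The Errfi1 window held the cAMP response element 51 bases before the start and the TATA box 28 bases before it. A match is a run of letters, not a bound site, and a window without one says nothing of sites elsewhere in the gene.

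The arrays differed in tissue makeup in ways that touch the results below. The cardiomyocyte genes Myh6 and Tnnt2 had mean log2 ratios of at least 4.77 and 5.48 in every group, while Sftpc, the surfactant protein of lung alveolar cells, stayed at background on each of the 22 arrays. The mean of the 2 lung epithelial markers tested was 1.74 and 1.70 in day 28 controls 1 and 5 and at most 0.11 in the other hearts. Between control time points 1 of these 2 markers was higher and 1 lower, and the rest of the 10 listed were not tested. The labels name heart as the tissue, but their protocol for RNA extraction names lung. The mean log2 ratio of 9 adipocyte markers was 1.89 in day 1 controls (range 1.60 to 2.83), 4.05 in nano-TiO2 day 1 mice (1.58 to 6.08), 5.42 in day 28 controls (3.80 to 6.58) and 3.79 in nano-TiO2 day 28 mice (1.70 to 5.73). The mean of 7 atrial markers ranged over 1.12 to 4.19, 1.01 to 5.26, 4.84 to 5.45 and 1.12 to 5.25 in the same order, and that of 9 liver markers, Alb among them, over 0.83 to 1.54, 0.25 to 2.95, 0.59 to 4.56 and 0.54 to 1.84. Among the adipocyte markers, Lep stayed at background throughout. In bulk heart RNA, fewer cells of a type and less RNA per cell cannot be told apart. Arrays lay on 9 slides scanned on 3 days, 32.7 to 52.8% of probes per array lay well above background, and no spot was saturated.

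Day 1 controls had the lowest mean of the 4 groups for 8 of the 9 genes, and the mean of the other 3 groups lay above them by 0.08 (Klf9) to 1.26 (Cebpd) on the log2 scale. The exception was Klf15, whose lowest mean was in nano-TiO2 day 28 mice. Over all genes tested, 31.9% had their lowest mean in day 1 controls. Day 1 controls also had the smallest SD of the 4 groups for 6 of the 9 genes, and day 28 controls the largest for 6. How often this order of SDs holds over all genes was not counted. In day 1 controls Fkbp5 and Arrdc2 cleared background on 1 of 5 arrays each, so their SD there was taken near the lower limit of measurement. Of the 6 day 28 controls, 4 were high in liver or lung markers. The values of the single hearts are shown in the plot by gene and group.

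**Figure D1:**
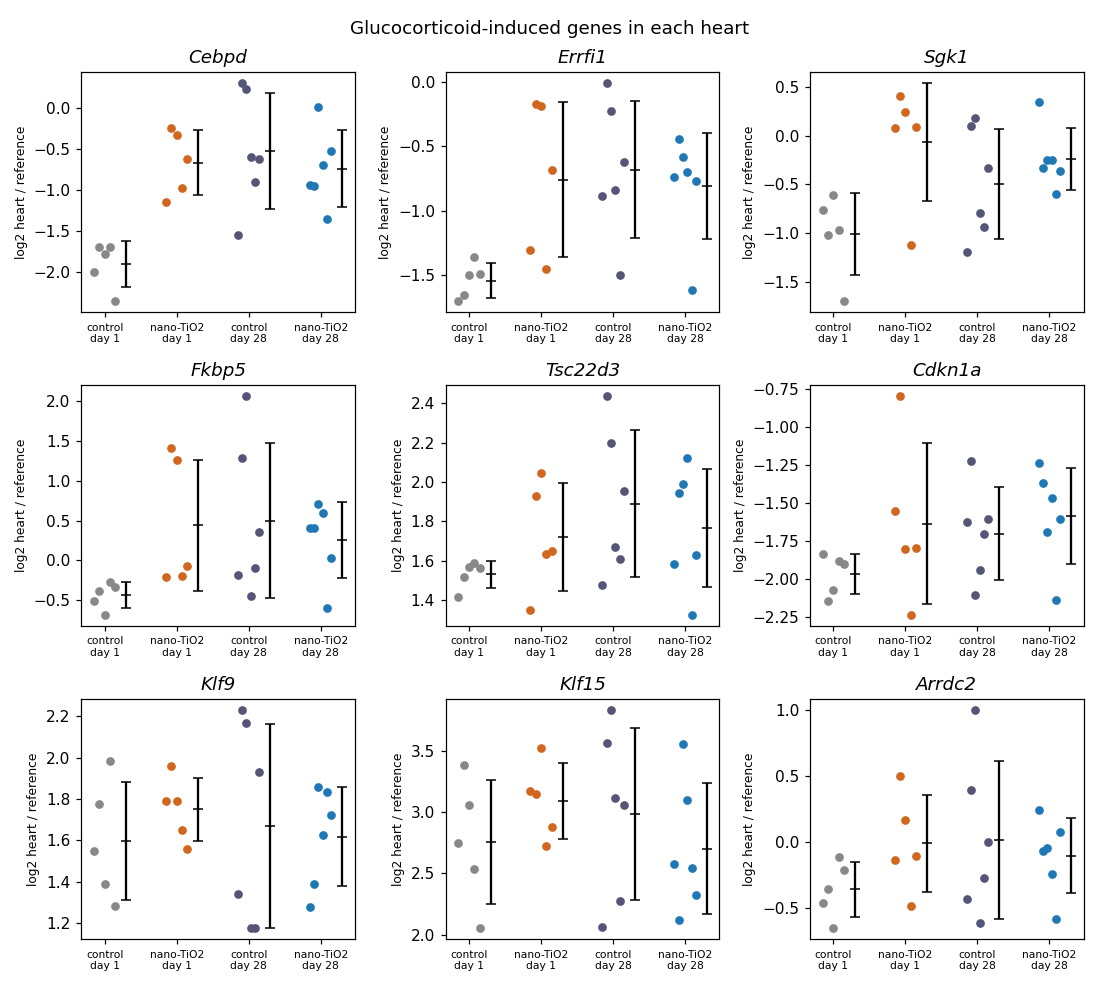
Log2 ratio of heart over reference RNA (vertical axis) of 9 glucocorticoid-induced genes in the 22 hearts, by group (horizontal axis). Each point is a mouse, and the bar beside the points is the mean ± SD over 5 or 6 mice. Day 1 controls lie low for Cebpd, between -2.36 and -1.69, below every nano-TiO2 day 1 and day 28 mouse and every day 28 control. The vertical axes differ between panels.

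Cebpd encodes C/EBPδ, a leucine zipper transcription factor induced by glucocorticoids and by acute-phase cytokines, and at day 1 it had the largest difference of the 9 genes in the fit reported here. With plain background subtraction and with the scanner software's log ratio Fkbp5 had the largest (2.60 and 2.48), and with marker covariates Sgk1 (1.40). In day 1 controls its log2 ratios were -2.0, -1.69, -1.78, -1.69 and -2.36. In nano-TiO2 day 1 mice they were -1.15, -0.25, -0.33, -0.98 and -0.62. All 5 exposed mice lay above all 5 controls. The difference was 1.24 ± 0.29 (SE; 2.36-fold, 5 mice per group), with an unadjusted p of 0.000277 and an adjusted p of 0.433 in limma over all genes, so it did not pass the threshold of 0.05. The gene ranked 9 of 15501 by p in that comparison.

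Cebpd was also high at day 28. Day 28 controls ran from -1.55 through a median of -0.61 to 0.31, and nano-TiO2 day 28 mice from -1.36 through -0.81 to 0.02. These 2 groups overlapped over most of their range, and both lay above the day 1 controls. Among controls Cebpd rose from day 1 to day 28 by 1.38 ± 0.28 (SE; 2.61-fold, adjusted p = 0.00478, limma), and the call held with each of the 11 control mice left out in turn (1.22 to 1.59). With slide as a fixed block the difference was 1.12 (adjusted p = 0.101), and with adipocyte and atrial marker means as covariates 1.30 (adjusted p = 0.889). The call was also lost with median centring (adjusted p = 0.107) and without the hearts high in liver or lung markers (0.178). At day 28 nano-TiO2 and control mice differed by -0.22 (95% interval -0.76 to 0.33).

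Errfi1 encodes MIG6, an inhibitor of the epidermal growth factor receptor. Its log2 ratios were -1.70, -1.66, -1.50, -1.36 and -1.49 in day 1 controls and -1.30, -0.17, -0.19, -1.45 and -0.68 in nano-TiO2 day 1 mice. Nano-TiO2 mice 1 and 4 lay at or near the control range, and mice 2 and 3 lay more than 1 log2 unit above it. The difference was 0.78 ± 0.26 (SE; 1.72-fold, unadjusted p = 0.0071, adjusted p = 0.478, limma). Day 28 controls spanned -1.50 to -0.0070 (median -0.73) and nano-TiO2 day 28 mice -1.61 to -0.44 (median -0.72), so the groups overlapped. Errfi1 rose among controls from day 1 to day 28 by 0.86 ± 0.25 (SE; 1.82-fold, adjusted p = 0.0316, limma). That call was lost when day 1 control 1, 2 or 3 or day 28 control 2, 3 or 4 was left out (adjusted p = 0.0501 to 0.079), with slide as a fixed block (0.49, adjusted p = 0.291) and with the marker covariates (1.05, adjusted p = 0.889). It was also lost with normexp fitted on all spots (adjusted p = 0.135), without a filter on dim probes (0.0535), with median centring (0.215), without the 3 hearts lowest in atrial markers (0.0674) and without the hearts high in liver or lung markers (0.202).

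Sgk1 encodes a serine/threonine kinase, induced by serum and glucocorticoids, that regulates ion channels and transporters. It is the gene whose upstream window, shown above, holds the full palindrome. In day 1 controls its log2 ratios were -0.76, -1.02, -0.61, -0.97 and -1.70, and in nano-TiO2 day 1 mice 0.08, 0.41, 0.24, -1.12 and 0.09. Nano-TiO2 mice 1, 2, 3 and 5 lay above every control, and mouse 4 lay within the control range. The difference was 0.95 ± 0.28 (SE; 1.93-fold, unadjusted p = 0.00262, adjusted p = 0.478, limma). With single mice left out it ran from 0.78 (without day 1 control 5) to 1.22 (without nano-TiO2 mouse 4). Day 28 controls spanned -1.20 to 0.18 and nano-TiO2 day 28 mice -0.59 to 0.35, with medians of -0.56 and -0.29. Sgk1 differed by 0.26 between these 2 groups (95% interval -0.27 to 0.79) and by 0.52 ± 0.27 (SE; adjusted p = 0.237, limma) between day 28 and day 1 controls.

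Fkbp5, the receptor's co-chaperone, had the largest SD of the 9 genes in both day 28 controls (0.98) and nano-TiO2 day 1 mice (0.82). Its log2 ratios were -0.52, -0.39, -0.68, -0.28 and -0.33 in day 1 controls and -0.21, 1.42, 1.26, -0.20 and -0.08 in nano-TiO2 day 1 mice. The groups did not overlap, but nano-TiO2 mice 1, 4 and 5 lay close to the controls and mice 2 and 3 well above. The probe cleared background on 1 of 5 day 1 control arrays and on 5 of 5 nano-TiO2 day 1 arrays, so the control values lie near the lower limit of measurement. The difference was 0.88 ± 0.40 (SE; 1.84-fold, unadjusted p = 0.0378, adjusted p = 0.548, limma). With the scanner software's own log ratio, which subtracts background differently, it was 2.48 (adjusted p = 0.243), and with plain background subtraction 2.60 (adjusted p = 0.443).

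Day 28 controls spanned -0.44 to 2.07 for Fkbp5, with a median of 0.13, and nano-TiO2 day 28 mice -0.60 to 0.70, with a median of 0.41. Day 28 control 3 was the highest of all 22 mice. Fkbp5 differed between the day 28 groups by -0.24 (95% interval -0.99 to 0.51) and between day 28 and day 1 controls by 0.94 ± 0.38 (SE; adjusted p = 0.119, limma), or 2.42 (adjusted p = 0.023) with the scanner software's log ratio. The other 2 Fkbp5 probes were not well above background on any of the 22 arrays and gave no usable value.

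Tsc22d3, which encodes GILZ, had the narrowest control group. Day 1 controls lay at 1.42, 1.51, 1.57, 1.59 and 1.56, and nano-TiO2 day 1 mice at 1.35, 1.93, 2.05, 1.64 and 1.65. Nano-TiO2 mice 2, 3, 4 and 5 lay above all controls and mouse 1 below them. The difference was 0.19 ± 0.17 (SE; unadjusted p = 0.27, adjusted p = 0.748, limma), and a second probe gave 0.18. In day 28 controls the ratio spanned 1.48 to 2.44 and in nano-TiO2 day 28 mice 1.32 to 2.12. Between day 28 and day 1 controls it differed by 0.36 ± 0.16 (SE; unadjusted p = 0.0362, adjusted p = 0.161, limma), and by 0.16 at the second probe.

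Klf9 and Klf15 encode Krüppel-like transcription factors, and KLF15 is a regulator of amino acid and lipid metabolism that restrains hypertrophy in mouse heart. Neither separated the groups. Klf15 spanned 2.05 to 3.38 in day 1 controls, 2.72 to 3.53 in nano-TiO2 day 1 mice, 2.06 to 3.83 in day 28 controls and 2.12 to 3.55 in nano-TiO2 day 28 mice. Its day 1 difference was 0.34 ± 0.31 (SE; adjusted p = 0.759, limma), and a second, dimmer Klf15 probe, well above background on 15 of 22 arrays, gave 0.03. Klf9 spanned 1.18 to 2.23 over the day 28 controls, the widest range of its 4 groups, and differed at day 1 by 0.15 ± 0.19 (SE; adjusted p = 0.828, limma). A second Klf9 probe gave 0.14.

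Cdkn1a encodes the cyclin-dependent kinase inhibitor p21 and is a target of p53 as well as of the glucocorticoid receptor. Its log2 ratios were -1.83, -2.14, -2.07, -1.88 and -1.90 in day 1 controls and -1.55, -0.80, -1.80, -2.23 and -1.80 in nano-TiO2 day 1 mice. Mouse 2 of the exposed group was the highest of all 22, and mouse 4 the lowest. The difference was 0.33 ± 0.20 (SE; adjusted p = 0.636, limma), and 0.12 without mouse 2. Arrdc2 encodes an arrestin-domain protein, and its probe cleared background on 1 of 5 day 1 control arrays and on 15 of 22 in all. Its day 1 controls spanned -0.65 to -0.11 and the nano-TiO2 day 1 mice -0.48 to 0.50, with a difference of 0.35 ± 0.23 (SE; adjusted p = 0.672, limma).

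Counted together at day 1, 9 of the 9 genes had a higher mean in nano-TiO2 than in control mice, where 54.2% of all genes did, and their median difference was 0.35 (log2) against 0.01 over all genes. That median was 0.96 with plain background subtraction, 0.92 with the scanner ratio and 0.68 with normexp fitted on all spots. None of the 9 passed the adjusted threshold, and none of the 15501 genes did (0%; 1340 at an unadjusted p under 0.05, limma). At an unadjusted p under 0.05, 4 of 9 were higher (Cebpd, Sgk1, Errfi1, Fkbp5) against 6.01% of all genes, and none was lower against 2.64%. The groups did not overlap for 2 of 9 (Cebpd and Fkbp5), with the exposed mice higher, against 1.27% of all genes, and 0.426% of all genes separated with the exposed mice lower. Fkbp5 and Arrdc2 cleared background mainly outside the day 1 controls, so the counts were also taken over the 7 genes well above background on all 22 arrays. Of these 7, 3 (Cebpd, Errfi1 and Sgk1) were higher at an unadjusted p under 0.05, against 5.85% of the 10381 genes that pass the same filter. Cebpd alone of the 7 had separate groups, and the share of the 10381 genes with separate groups was not counted. The count of 9 was 8 with Cy5 quantile-normalized alone, where Klf9 turned to -0.01, and with plain background subtraction, where Klf15 turned to -0.04. It was 7 of 7 among the genes well above background on all arrays, and the share of the 10381 genes that were higher was not counted. Centring arrays on their median in place of loess moved the median of all genes to 0.17.

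In the Cy3 channel, which holds the same reference RNA on every array, the 9 genes differed between the groups by -0.10 to 0.09 in the day 1 comparison. Each scan day held day 1 mice of both groups. Day 1 control 3 and nano-TiO2 day 1 mouse 3 lay on slides without a day 1 mouse of the other group. Within the 4 slides that held 1 day 1 control and 1 nano-TiO2 day 1 mouse, the median difference of the 9 genes was 0.32, 1.35, -0.09 and 0.28, and Cebpd differed by 0.85, 1.44, 0.72 and 1.73. Within the 3 scan days the median was 0.82, 0.81 and 0.17, and Cebpd differed by 1.46, 1.15 and 1.22. Cebpd was higher in the exposed mouse on each of these slides and scan days, whereas Fkbp5 differed by as little as 0.08 on 1 slide and 0.17 on 1 scan day.

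At day 28 most of the 9 genes had a slightly lower mean in nano-TiO2 mice. Sgk1 (0.26) and Cdkn1a (0.12) had a higher one, 2 of 9, where 48.1% of all genes did, and the median was -0.13 against -0.01 over all genes. None of the 9 reached an unadjusted p under 0.05 in either direction, against 2.22% of all genes higher and 5.36% lower, and none passed adjustment (0% of all genes; 1175 at an unadjusted p under 0.05, limma). The day 28 groups overlapped for all 9 genes, and over all genes 0.0516% separated upward and 0.071% downward. Within the 6 slides that held both day 28 groups the median of the 9 genes ranged from -0.49 to 0.52, and within the 3 scan days it was -0.11, -0.15 and -0.17. When single day 28 controls were left out, the median ran up to 0.04, reached without control 3.

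The 2 treatment effects were then compared with each other. Each of the 9 genes had a smaller effect at day 28 than at day 1, whereas 45.8% of all genes had a larger effect at day 28. The median difference of effects was -0.62, against -0.02 over all genes. At an unadjusted p under 0.05 the effect of 3 of the 9 was smaller (Cebpd -1.46 ± 0.39, Fkbp5 -1.12 ± 0.54 and Errfi1 -0.91 ± 0.36, SE), against 9.94% of all genes. That of none was larger, against 4.81%. The day 1 control values of Fkbp5 and Arrdc2 lie near the lower limit of measurement, with 1 of 5 arrays above background each. None of the 9 passed adjustment, with Cebpd at an adjusted p of 0.119 (limma, 0% of all genes called, 2287 at an unadjusted p under 0.05). Cebpd passed without nano-TiO2 day 1 mouse 1 (-1.58, adjusted p = 0.043) and without nano-TiO2 day 28 mouse 3 (-1.61, adjusted p = 0.0444).

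Among controls alone, all 9 genes had a higher mean at day 28 than at day 1, against 49.4% of all genes, and the median difference was 0.37 against -0.0024 over all genes. This comparison uses the same day 1 controls as the day 1 treatment comparison, so both rest on the same 5 mice. Cebpd and Errfi1 passed adjustment, 2 of 9 against 10.5% of all genes (1627 of 15501, limma). At an unadjusted p under 0.05, 4 of 9 were higher (Cebpd, Errfi1, Fkbp5 and Tsc22d3) against 14.9% and none was lower against 10.4%. Only Cebpd had groups that did not overlap, against 4.66% upward and 2.35% downward over all genes. In day 1 controls Fkbp5 and Arrdc2 cleared background on 1 of 5 arrays each, and in day 28 controls on 6 of 6 and 5 of 6. These counts were not taken over the 7 genes well above background on all 22 arrays. With Cy5 alone 7 of 9 were higher, and 8 of 9 with plain background subtraction or with normexp fitted on all spots. Within the 3 slides that held 1 control of each day the median was -0.04, 0.79 and 0.20, and Cebpd differed by 0.14, 2.02 and 1.45. Within the 3 scan days the median was 0.42, 0.49 and 0.36, Cebpd differed by 1.61, 1.23 and 1.26, and Errfi1 by 0.96, 1.23 and 0.36.

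Among nano-TiO2 mice, day 28 minus day 1 gave 2 of 9 higher (Tsc22d3 0.04 and Cdkn1a 0.05), against 44.3% of all genes, with a median of -0.09 and no gene called (0%; 697 at an unadjusted p under 0.05, limma). None of the 9 was at an unadjusted p under 0.05 there, against 1.65% of all genes higher and 2.84% lower, and none had separate groups, against 0.303% and 0.458%.

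**Figure D2:**
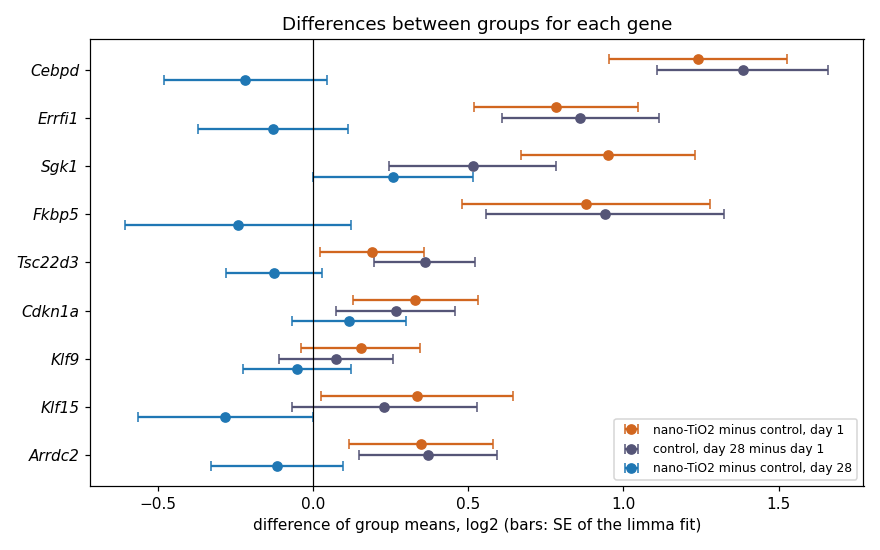
Difference of group means (log2, horizontal axis) ± SE of the limma fit for each of the 9 genes in 3 comparisons. The day 1 treatment difference (orange) and the day 28 minus day 1 difference of controls (purple), which share the day 1 controls, are above 0 for all 9 genes, and the day 28 treatment difference (blue) is above 0 for Sgk1 (0.26) and Cdkn1a (0.12).

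Markers of other cell types moved in the same comparisons. All 9 adipocyte markers and all 7 atrial markers tested were higher in nano-TiO2 than in control mice at day 1 (medians 2.59 and 1.50), as were 8 of 8 mesothelial, 5 of 6 smooth muscle, 9 of 9 fibroblast and 7 of 7 macrophage markers (medians 0.81, 1.22, 0.31 and 0.48). The part of the mesothelial, smooth muscle, fibroblast, macrophage and cardiomyocyte markers in the differences of the 9 genes was not tested. From day 1 to day 28 in controls the adipocyte and atrial medians were 4.25 and 2.60, and 7 of 9 and 3 of 7 of them passed adjustment. So did 8 of 8 mesothelial markers (median 1.38), 5 of 6 smooth muscle (1.80), 4 of 7 macrophage (0.46), 3 of 9 fibroblast (0.58) and 2 of 9 liver markers (1.27), and 4 of 8 cardiomyocyte markers, of which 7 were lower (-0.38). At day 28 all 9 adipocyte and all 9 liver markers were lower in nano-TiO2 mice (medians -1.87 and -1.51), and for the difference of effects the adipocyte and atrial medians were -4.42 and -2.47. The 2 hearts highest in adipocyte markers, day 28 controls 1 and 5 (both 6.58), had means of the 9 genes of -0.11 and -0.04, in the lower part of the range. These 2 hearts also had the lung epithelial marker means of 1.74 and 1.70, with liver marker means of 4.36 and 2.49. The 2 hearts highest in the 9 genes, day 28 controls 3 and 2 (1.04 and 1.01), had adipocyte means of 5.02 and 5.41. The next highest, nano-TiO2 day 1 mice 2 and 3 (0.90 and 0.75), had adipocyte means of 4.49 and 3.53. Among the hearts low in adipocyte markers, nano-TiO2 day 28 mouse 1 (1.70) and nano-TiO2 day 1 mouse 1 (1.58) had means of the 9 genes of 0.39 and 0.23, and each of the 5 day 1 controls was below 0. No cause was tested with these single hearts.

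**Figure D3:**
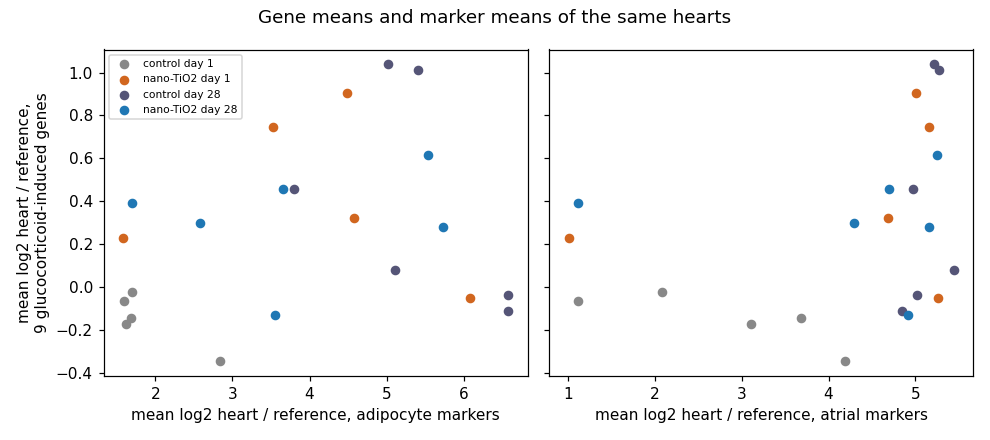
Mean log2 ratio of the 9 glucocorticoid-induced genes (vertical axis) against the mean of 9 adipocyte markers (left) and of 7 atrial markers (right) in each of 22 hearts, coloured by group. Day 1 controls have gene means from -0.34 to -0.02 and adipocyte means from 1.60 to 2.83. Day 28 controls 1 and 5, highest in adipocyte markers (both 6.58), have gene means of -0.11 and -0.04. Their means of the 2 lung epithelial markers tested are 1.74 and 1.70. Day 28 controls 3 and 2, highest in the genes, have adipocyte means of 5.02 and 5.41.

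With both marker means as covariates, 9 of 9 genes had a difference above 0 at day 1. Sgk1 differed by 1.40 (unadjusted p = 6.9e-05, adjusted p = 0.816, limma), against 0.95 without the covariates. Cebpd differed by 1.19 (unadjusted p = 0.00214, adjusted p = 0.922, limma), against 1.24 (unadjusted p = 0.000277) without them. Errfi1 differed by 0.90 and Fkbp5 by 1.00, against 0.78 and 0.88. Without the 3 hearts lowest in atrial markers, 1 in each group but the day 28 controls, Sgk1 differed by 0.91, and 9 of 9 were again higher. Without the 5 hearts high in liver or lung markers, 4 of them day 28 controls, 9 of 9 were higher at day 1 (median 0.32) and 0 of 9 were higher at day 28. The day 28 treatment comparison and the control comparison then both rested on 2 day 28 controls, mice 2 and 6. Control 2 ranked 2 of 22 hearts by the mean of the 9 genes (1.01). Between control time points Cebpd then differed by 1.75 (adjusted p = 0.178, limma).

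The genes varied together between mice of the same group. After each group's mean was subtracted, 35 of the 36 gene pairs had a Pearson r above 0 over the 22 mice, 25 had an r above 0.5, and the median r was 0.61. The highest was 0.89, between Fkbp5 and Arrdc2, followed by 0.84 between Fkbp5 and Tsc22d3 and 0.83 between Tsc22d3 and Errfi1. Cdkn1a stood apart, with an r from -0.07 (Klf15) to 0.51 (Errfi1). The same arrays, depth and tissue makeup underlie every pair, and these values are a description. The same counts over pairs of all genes were not taken, so how far these pairs exceed other pairs is not known.

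**Figure D4:**
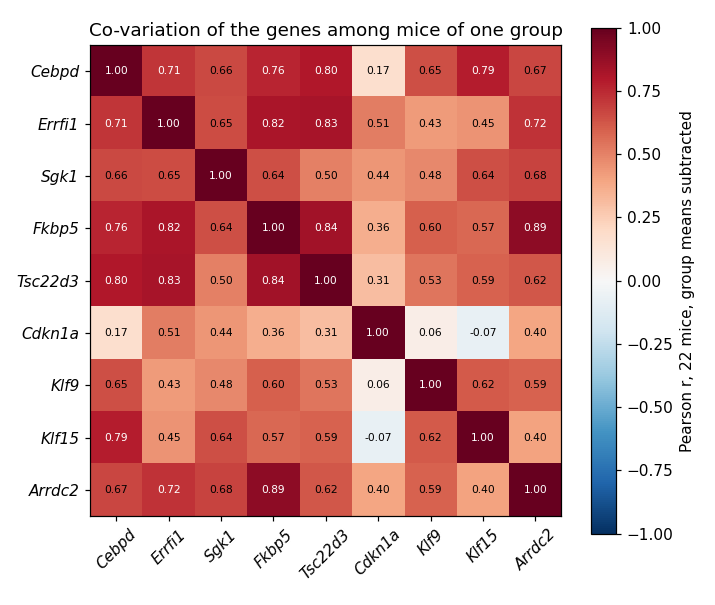
Pearson r between each pair of the 9 genes over 22 hearts, after the mean of each group was subtracted (colour scale from -1 to 1). The block of Cebpd, Errfi1, Fkbp5 and Tsc22d3 runs from 0.71 to 0.84, and the row of Cdkn1a from -0.07 to 0.51.

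Single hearts ranked high or low across most of the genes. Day 28 control 2 was among the 5 highest of 22 for 9 of the 9 genes, day 28 control 3 for 8, and nano-TiO2 day 1 mice 2 and 3 for 7 each. At the other end, day 1 control 2 was among the 5 lowest for 6 genes, and day 1 controls 1 and 3 and nano-TiO2 day 28 mouse 5 for 5 each. The high hearts named here were thus day 28 controls and nano-TiO2 day 1 mice, and the low ones day 1 controls and a nano-TiO2 day 28 mouse. Day 1 controls 2 and 4 were among the 5 highest for 1 gene each, and the other day 1 controls for none. Such ranks were not counted over all genes.

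The genes most like the 9 in this within-group variation were Nfkbia (r = 0.86), Csrnp1 (0.86), Zfp36 (0.83), Klf6 (0.82), Snrk (0.81), Depp1 (0.81), Btg2 (0.81) and Bcl2l1 (0.79), out of 10182 named genes whose median r was 0.05. An r above 0.5 was seen for 2.3% of those genes. Nfkbia encodes the NF-κB inhibitor IκBα, and Zfp36 encodes tristetraprolin, which speeds the decay of cytokine mRNAs. At day 1 Nfkbia differed by 1.08 between nano-TiO2 and control mice, Depp1 by 1.10 and Csrnp1 by 0.77, whereas Snrk differed by 0.0028.

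Genes upstream of the 9 were measured beside them. Nr3c1, the glucocorticoid receptor, was well above background on all 22 arrays and differed by -0.02 ± 0.11 at day 1 and by -0.10 ± 0.10 between day 28 and day 1 controls (SE; adjusted p = 0.965 and 0.588, limma). Hsd11b1, which regenerates active corticosterone inside cells, differed by -0.0027 ± 0.34 and 0.45 ± 0.33 (SE; adjusted p = 0.998 and 0.425). Fkbp4, a co-chaperone that promotes receptor function, differed by -0.24 ± 0.14 and -0.26 ± 0.13 (SE; adjusted p = 0.609 and 0.213). Hsd11b2, which inactivates corticosterone, stayed at background on all arrays, and Nr3c2, the mineralocorticoid receptor, was not analysed here. Of 11 receptor, chaperone and steroid enzyme genes tested, 1 passed among controls from day 1 to day 28, a share near the 10.5% of all genes called there. It was H6pd, named after its value was seen, which supplies NADPH to the Hsd11b1 enzyme, rose by 0.47 ± 0.14 (SE; adjusted p = 0.0334, limma). With slide as a fixed block or with the marker covariates no gene at all was called between control time points, so this call and those below for that comparison were lost in both.

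A wider list of 35 genes reported to respond to glucocorticoids was 29 higher and 6 lower in nano-TiO2 mice at day 1, with a median of 0.23, 9 higher at an unadjusted p under 0.05 and none called after adjustment. Over all genes 54.2% were higher and 6.01% were higher at that p. The smallest p-values belonged to Nfkbia (1.08 ± 0.31), Dusp1, a MAP kinase phosphatase (0.78 ± 0.25), Tob2 (0.53 ± 0.17) and Rgs2, a regulator of G protein signalling (0.67 ± 0.22, SE). In controls from day 1 to day 28, 25 were higher and 10 lower, against 49.4% of all genes higher, and 11 passed adjustment, against 10.5%. Rgs2 rose by 1.00 ± 0.21 (adjusted p = 0.00608), Mgp, an inhibitor of calcification, by 1.19 ± 0.26 (0.00721), Cebpb by 0.72 ± 0.16 (0.00731) and Map3k6 by 0.85 ± 0.20 (0.0107; SE, limma). At day 28, 12 of the 35 were higher in nano-TiO2 mice, with a median of -0.09, against 48.1% of all genes higher. At an unadjusted p under 0.05 (limma) 6 of the 35 were lower there, against 5.36% of all genes, and none was higher, against 2.22%. For the difference of effects 11 of the 35 were lower at that p, against 9.94%, and none was higher, against 4.81%. None passed adjustment in either comparison.

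Lists that overlap the regulation of the 9 genes were counted too, against the same shares of all genes (54.2% higher at day 1, 10.5% called between control time points). Of 14 circadian clock genes, 6 were higher and 8 lower at day 1 (median -0.11), none at an unadjusted p under 0.05. Tef (-0.38 ± 0.23), Per1 (0.50 ± 0.34) and Bhlhe41 (-0.16 ± 0.12, SE) had the smallest p-values. Between control time points Per1, a clock gene that glucocorticoids also induce, rose by 1.01 ± 0.32 (adjusted p = 0.0485), and Nfil3 (-0.64) and Bhlhe40 (0.24) did not pass, so that 1 of 14 was called. Of 19 immediate early genes, 14 were higher at day 1 (median 0.14), with Egr1 at 0.88 ± 0.24, Nr4a1 at 1.60 ± 0.46, Dusp1 as above and Ier5 at -0.41 ± 0.15 (SE), none after adjustment. Between control time points Nr4a1 rose by 1.93 ± 0.44 (adjusted p = 0.0095) and Klf4 by 0.66 ± 0.18 (0.0226), while Egr2 (0.38) and Atf3 (0.46) did not pass, so that 2 of 19 were called.

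Because Cdkn1a is a p53 target, 13 other p53 targets were set beside it. At day 1, 2 of the 13 were higher and 11 lower (median -0.06), against 54.2% of all genes higher, led by Ccng1 (-0.19 ± 0.11), Bax (-0.18 ± 0.11), Psrc1 (-0.23 ± 0.18) and Sesn2 (-0.09 ± 0.09, SE), with none at an unadjusted p under 0.05. Between control time points Ccng1 fell by 0.47 (adjusted p = 0.00797) and Trp53inp1 rose by 0.37 ± 0.12 (adjusted p = 0.0464), while Phlda3 (0.68) and Ei24 (-0.17) did not pass (limma), so that 2 of 13 were called against 10.5% of all genes.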

How the data were processed

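The authors' deposited scanner files hold spot intensity as median signals of both dyes with local background, unnormalized, and the scanner's log10 ratio, per the file headers. The software was Agilent Feature Extraction 9.5.3.1 per the submitters' processing notes and 10.7.3.1 per the file headers. The deposited series matrix holds the authors' log2 ratios, whose scale and direction match Cy5 over Cy3 loess ratios without background correction (r at least 0.992); centring stays unknown. In limma 3.58.1 (R 4.3.3) spots were background-corrected (normexp, offset 50, on median signals, since no means are given, leaving out spots marked uneven), loess-normalized and fitted with 1 mean per group. Flagged spots (0.425%) were dropped. P-values were Benjamini-Hochberg adjusted over 15501 genes (threshold 0.05). RefSeq accessions named 23374 of 41174 probes. On simulated day 1 data, 96% of 100 genes changed by 1 (log2) and 97% of 100 genes changed by 2 were recovered, with 13 false calls in all. In the real day 1 comparison the difference of 1.24 for Cebpd was not called, so the simulated rate is not the power of that comparison. The number of arrays limits the precision.

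The 10 genes and all lists were chosen with earlier results of these data known. Named were all 10 genes with every probe, Nr3c1, Nr3c2, Hsd11b1, Hsd11b2 and Fkbp4, up to 4 genes per other list with the smallest p at day 1 and between control time points, 8 genes most alike, and tissue genes; some named by this rule are not reported here. Background correction, normalization, filters, probe choice, weights, slide, scan day, marker covariates and single mice were varied, and leaving out hearts by atrial, liver or lung markers was chosen after seeing the data.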

Additional observations from a re-analysis of the deposited data

Results flagged for a closer look

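For each of 36 groups of 5 or 6 mice, 1 for each gene and group, the gap of an extreme mouse to its nearest neighbour was divided by the group's range. In 3 groups this ratio exceeded Dixon's 95% critical value (0.71 for 5 mice, 0.625 for 6). Chance gives such a ratio in about 1 in 20 groups. Sgk1 was low in nano-TiO2 day 1 mouse 4, at -1.12 (log2 heart over reference) against 0.08 to 0.41 in the other 4 mice. Sgk1 was high in nano-TiO2 day 28 mouse 1, at 0.35. Errfi1 was low in nano-TiO2 day 28 mouse 5, at -1.61.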

How the results depend on the processing

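The median difference of the 9 genes kept its sign at day 1 in all settings, but was 0.96 with plain background subtraction, 0.68 with normexp fitted on all spots and 0.92 with the scanner software's log ratio. Counts of all genes called moved more. At day 1 they were 1 with plain subtraction, 7 with the scanner ratio, 4 with array weights, 40 without the 3 hearts lowest in atrial markers and 0 to 21 with single mice left out (21 without nano-TiO2 day 1 mouse 1). At day 28 they were 1 with plain subtraction and 0 to 3 with single mice left out (3 without day 28 control 6). For the difference of effects they were 41 with the scanner ratio, 92 with array weights, 6 with scan day as a block, 95 without the 3 low-atrial hearts and 0 to 311 with single mice left out (311 without nano-TiO2 day 1 mouse 1, 178, 13 and 28 without nano-TiO2 day 28 mice 3 and 6 and day 28 control 6). Between control time points they were 79 with normexp on all spots, 3865 with the scanner ratio, 87 with median centring, 2688 with array weights, 0 with slide as a fixed block, 0 with marker covariates, 1 without the hearts high in liver or lung markers and 957 to 2069 with single mice left out (957 and 1069 without day 1 controls 2 and 1, 960 and 1070 without day 28 controls 4 and 5). The cause was not tested. With median centring Cebpd (1.61, adjusted p = 0.107) and Errfi1 (1.10, adjusted p = 0.215) lost their calls between control time points. Of the values for single genes, 1455 kept their side of the threshold, 17 lost and 3 gained a call, and 55 of 1475 changed sign, none of them for a difference with an unadjusted p under 0.05. By replicate number no paired analysis was possible because those numbers follow accession order, and slide served as a block instead. Dim probes limit Fkbp5 and Arrdc2.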
